A study of Mus musculus with 9 samples.

Results

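Transcripts of 38 genes of central carbon metabolism were followed in germinal center (GC) B cells that kept or lost the transcription factor FOXO1. The genes encode enzymes and transporters of 3 pathways, taken as a fixed list of names. A total of 20 belonged to glycolysis, with glucose and lactate transport and the kinase gene Pdk1, 6 to the pentose phosphate pathway and 12 to the tricarboxylic acid (TCA) cycle with pyruvate dehydrogenase. Each was read from its brightest probe set that carried 1 gene symbol. Of the 38, 34 were tested among 10331 genes, namely 17 of glycolysis, 5 of the pentose phosphate pathway and 12 of the TCA cycle. Gapdh had a single-symbol readout only on 3 control probe sets of the array and was described apart from the test. Gpi1, Eno1 and G6pdx were not analysed here.

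GC B cells were sorted by FACS (B220hi, PNAhi, CD95hi) from B cell-enriched spleens of 10 wk old mice on day 12 of an immunization with sheep red blood cells. All animals carried Cg1-Cre, a recombinase that acts in activated B cells, so the series held no group without Cre. The genotypes were FOXO1+/+, Cg1-Cre (WT), FOXO1f/+, Cg1-Cre (HET, 1 floxed allele) and FOXO1f/f, Cg1-Cre (KO, 2 floxed alleles), with 3 Affymetrix mouse expression arrays each. The sample labels gave 1 animal per array, whereas the design text spoke of pooled spleen cells. If the latter holds, the p-values measure the spread between pools.

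Foxo1 itself was read first. By its brightest probe set it averaged 5449 ± 159 on the WT arrays, 3564 ± 77.9 in HET and 1034 ± 335 in KO (MAS5 signal, a linear scale; SD, n = 3). Of its 4 probe sets the dimmest was not lower in KO. Whether the probes lie in the floxed segment was not analysed here. All 10 GC B cell markers with a readout, among them Bcl6, S1pr2 and Fas, lay above the array median on all 9 arrays. Of 9 T and NK cell markers 6, of 7 erythroid and platelet markers 5, of 7 stromal markers 4 and of 19 myeloid markers 7 lay below the array median on every array. Above it on every array lay 6 myeloid markers (Lyz1, Lyz2, Cd68, Hmox1, Cybb and Ctss), 1 T and NK cell marker, 1 stromal marker and 0 erythroid and platelet markers.

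Glycolysis splits glucose into pyruvate in the cytosol, and lactate dehydrogenase turns pyruvate into lactate. The pentose phosphate pathway leaves glycolysis at glucose 6-phosphate and yields NADPH and ribose 5-phosphate, the sugar of nucleotides. The TCA cycle oxidises acetyl-CoA in mitochondria, and pyruvate dehydrogenase, which PDK1 inhibits, feeds it. FOXO1 is held out of the nucleus by PI3K and AKT, the same signaling axis that promotes glucose uptake in lymphocytes. GC B cells divide fast and therefore need nucleotides, NADPH and ATP.

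In KO against WT cells, 2 of the 34 tested genes rose and 5 fell, while 27 did not pass at an adjusted p under 0.05. The glucose transporter gene Slc2a3 and Pfkfb3, the gene of an enzyme that makes the activator of phosphofructokinase, rose. Tpi1, Ldha, the pentose phosphate gene Rpia and the TCA genes Suclg1 and Fh1 fell. Changes were small: the 2 rises were 1.29-fold and 1.36-fold, and the largest fall, of Fh1, left a KO to WT ratio of 0.767. The share of the 34 that fell was 14.7%, beside 5.83% of all tested genes, and the share that rose was 5.88%, close to the 6.1% of all. In either direction 7 of 34 were called (20.6%), beside 11.9% of all. Without WT replicate 2 or 3 or KO replicate 1 or 2 the number called was 4 in each case, and the share of all tested genes called was then 7.49%, 7.48%, 8.45% and 9.25%. At an unadjusted p under 0.05 there were 10 of 34, beside 25.7% of all. The log2 change lay below 0 in 23 of 34, beside 47.7% of all tested genes, with a median of -0.079 against 0.011 over all. In these bulk samples fewer cells of a type and less RNA per cell cannot be told apart, and since MAS5 scales every array to 1 mean, each change is relative to the rest of the array. Across all tested genes 630 were called higher and 602 lower; with every array centred on the median of all its probe sets these became 398 and 1684, the median of all tested genes moved from 0.011 to -0.11, and 1 of the 34 was called higher and 12 lower.

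**Figure D1:**
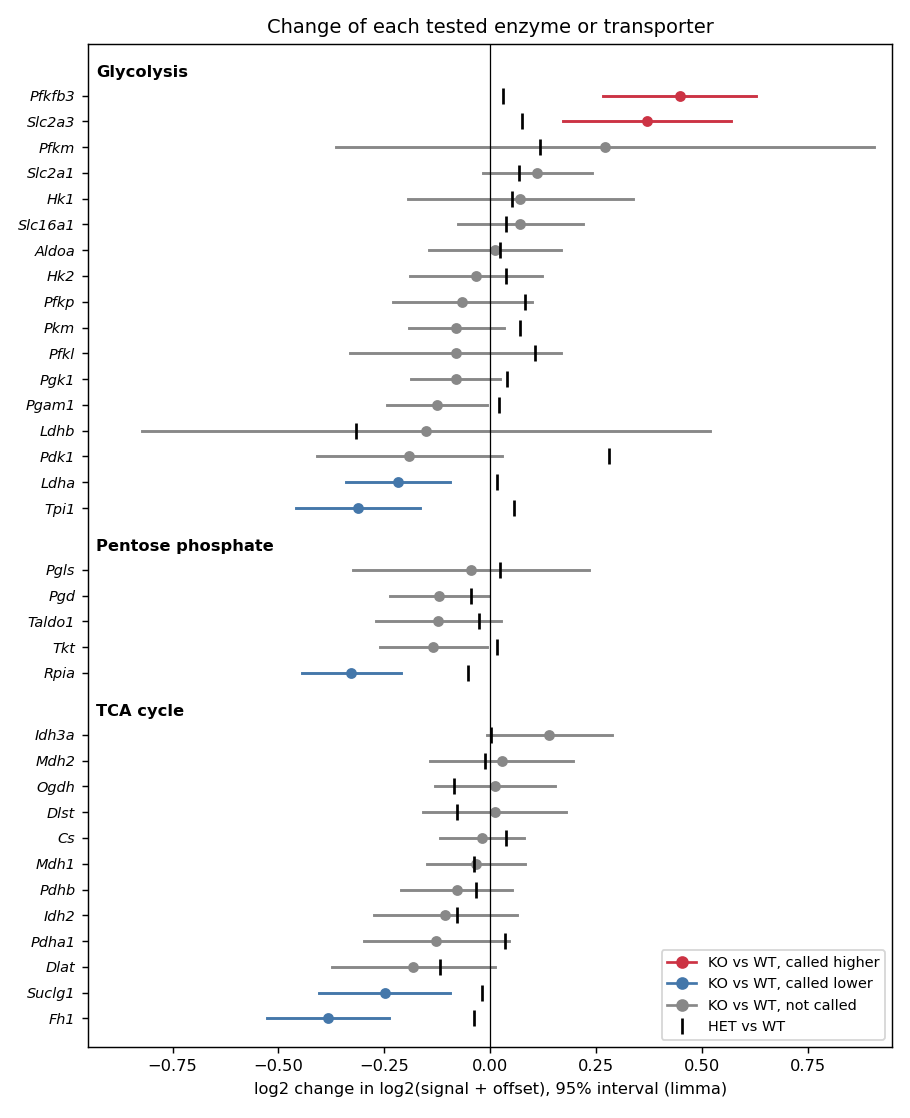
Log2 change of each tested gene, KO against WT, as a point with its 95% interval from limma, grouped by pathway (red, called higher; blue, called lower; grey, not called); black ticks give the HET against WT change. Pfkfb3 (0.45) and Slc2a3 (0.37) stand apart at the top of glycolysis, Rpia (-0.33) and Fh1 (-0.38) at the bottom of their pathways, and Pfkm and Ldhb have the widest intervals.

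Among the glucose transporters, Slc2a3 encodes GLUT3, a carrier of high affinity. Its signal was 1383, 1183 and 1289.6 on the WT arrays, 1385, 1421 and 1255 on the HET arrays and 1701, 1811 and 1482 on the KO arrays. All KO arrays lay above all WT and HET arrays. The log2 signal thus rose by 0.37 between WT and KO (SE 0.092, limma adjusted p = 0.0196). Its other bright probe set gave 948, 931 and 818 in WT, 1112, 1080.1 and 1059 in HET and 1443, 1245 and 1069 in KO, a change of 0.47 (adjusted p = 0.0165 in a fit over all probe sets), but there the KO and HET arrays overlapped and all HET arrays lay above all WT arrays (HET vs WT change 0.27, adjusted p = 0.999). Both probe sets carry a suffix for probes that may match related transcripts, and 2 more were below the array median throughout. The Slc2a3 call was lost without WT replicate 2 or 3 or KO replicate 1 or 2 (adjusted p = 0.0886, 0.0620, 0.0624 and 0.0757; lowest and highest over all settings 0.00830 and 0.0886). Slc2a1, the gene of the broadly used carrier GLUT1, was 3336, 2936 and 3256 in WT, 3331, 3272 and 3366 in HET and 3367, 3412 and 3502 in KO. Its KO arrays also lay above all WT and HET arrays, by a narrow margin, but the change of 0.11 did not pass (adjusted p = 0.262; 95% interval -0.017 to 0.24). On its 2 other probe sets, with changes of -0.0068 and 0.095, the KO and WT arrays overlapped.

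Pfkfb3 makes fructose 2,6-bisphosphate, which switches on phosphofructokinase, the pacemaker of glycolysis. Its signal was 750.1, 827 and 801 in WT, 753, 846 and 832 in HET and 1065, 1039 and 1140.4 in KO. The lowest KO array was above the highest array of either other genotype. The rise of 0.45 (SE 0.083, limma adjusted p = 0.00389) was the largest change among the 34 and held under all 22 alternative settings of the analysis. The other Pfkfb3 probe set was above the array median on 1 of 9 arrays and was not kept. It had a change of -0.93, with overlapping KO and WT arrays. Settings on the choice of probe set could thus not change the Pfkfb3 readout. The genes of phosphofructokinase itself were not called. Pfkl had a change of -0.081, Pfkp of -0.065 and the dim Pfkm of 0.27, with 95% intervals of -0.33 to 0.17, -0.23 to 0.098 and -0.36 to 0.91. The other kept Pfkl sets had changes of -0.21 and 0.51 (limma adjusted p = 0.284 and 0.381 over all probe sets). On the set with -0.21 all KO arrays lay below all WT arrays, and on the other they overlapped. The hexokinase genes, whose enzymes trap glucose in the cell, were not called either: Hk1 had a change of 0.072 (-0.19 to 0.34). Hk2 was 1092, 1072 and 1118 in WT, 1181, 1119 and 1069 in HET and 1053, 1102 and 1051 in KO. The 3 groups overlapped, with a change of -0.034 (-0.19 to 0.12).

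In the lower part of glycolysis, where 3-carbon sugars become pyruvate and lactate, no tested gene rose. Tpi1 encodes triosephosphate isomerase, which joins the products of aldolase into 1 stream. It stood at 3997, 3971 and 3652 in WT, 3982, 3958 and 4125 in HET and 3219, 2830.2 and 3327 in KO. All KO arrays were below all other arrays, and Tpi1 fell by 0.31 (SE 0.067, limma adjusted p = 0.00955). Its 2 other probe sets had changes of -0.25 and -0.21 (adjusted p = 0.0119 and 0.109 over all probe sets). The Tpi1 call was lost without HET replicate 3, where the last of these probe sets became the brightest (adjusted p = 0.110; lowest and highest over all settings 7.90e-04 and 0.132).

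Ldha, the gene of the lactate dehydrogenase subunit that favours lactate, was 8095, 8172 and 8902 in WT, 9081, 8184 and 8193 in HET and 6976, 7224 and 7436 in KO. The KO arrays lay below all others. Ldha fell by 0.22 (SE 0.056, limma adjusted p = 0.0249). That call was lost without WT replicate 2 or 3 or KO replicate 1 or 2 (adjusted p = 0.0511, 0.0692, 0.0913 and 0.0635; lowest and highest over all settings 0.00364 and 0.0954). Ldhb, the other subunit, was near the array median, above it on 6 of 9 arrays, with an interval of -0.82 to 0.52. Slc16a1, which encodes the lactate carrier MCT1, had a change of 0.071 (-0.077 to 0.22) on its brightest probe set. The other was 25.6, 27.9 and 20.6 in WT and 49.4, 71.1 and 34.3 in KO. It was above the array median on 3 of 9 arrays, HET replicate 1 and KO replicates 1 and 2, and on no WT array. All its KO arrays lay above all WT arrays, with a change of 0.96 (limma adjusted p = 0.0986 over all probe sets). Since it passed the filter only through HET and KO arrays, that p-value is no test of a rise. Over all settings the Slc16a1 change ran from -0.049 to 0.51, with a lowest limma adjusted p of 0.0511. The 0.51 came with the mean of probe sets, which includes this dim set.

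The remaining genes of the lower part did not pass. Pkm, the gene of pyruvate kinase, which makes pyruvate and ATP, was 5224, 5395 and 4981 in WT, 5480.2, 5653 and 5241 in HET and 4989.8, 4792 and 4976 in KO. Only KO replicate 1 reached into the range of the WT arrays, and the change was -0.080 (adjusted p = 0.368). Pgk1 (-0.081) and Pgam1 (-0.13), which handle the phosphoglycerate steps, had KO arrays below all WT arrays without passing (adjusted p = 0.324 and 0.166). The 2 other Pgk1 probe sets had changes of 0.17 and 0.039 with overlapping arrays, and with the mean of probe sets the Pgk1 change was 0.043, so its direction was not settled. The aldolase gene Aldoa had a change of 0.011 (-0.14 to 0.17). The 3 Gapdh control probe sets, for the 3', middle and 5' parts of the transcript, had changes of -0.095, -0.11 and -0.11 with adjusted p = 0.306, 0.160 and 0.227 when added to the fit. The 3' set was 12518, 12781 and 14669 in WT and 12418, 12381 and 12528 in KO (exact permutation p = 0.20, two-sided; the smallest that 3 against 3 arrays allow is 0.10). There KO replicate 3 reached into the WT range. The middle set was 9592, 9805 and 10337 in WT and 9141, 8994 and 9409 in KO, and the 5' set 7766, 7723 and 8986 in WT and 7460.1, 7599.8 and 7489 in KO. In both of these all KO arrays lay below all WT arrays (exact permutation p = 0.10 each, the smallest possible).

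**Figure D2:**
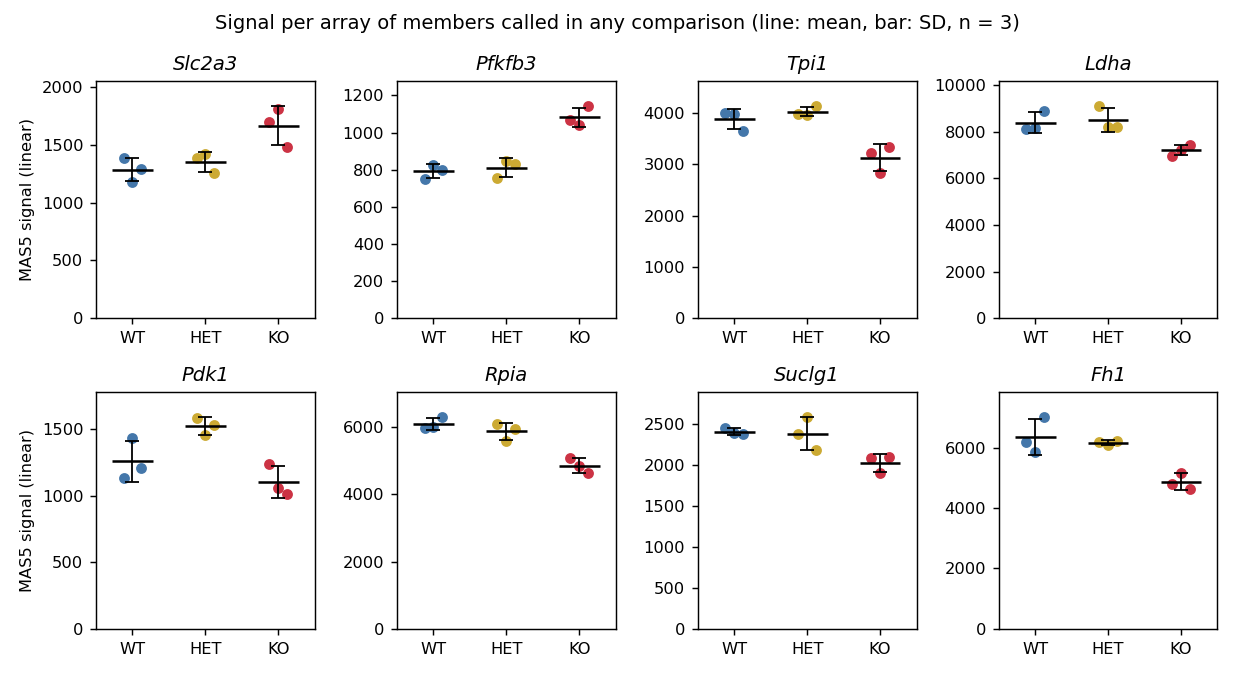
MAS5 signal (linear axis from 0) of the 8 genes called in any comparison, with 1 point per array, the mean as a line and the SD as a bar (n = 3). Slc2a3 and Pfkfb3 are high on the KO arrays, Tpi1, Ldha, Rpia, Suclg1 and Fh1 are low there, and Pdk1 is highest on the HET arrays.

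Pdk1, the brake on pyruvate entry into the TCA cycle, followed another order. Its signal was 1136, 1433 and 1209 in WT, 1585, 1454 and 1533 in HET and 1241, 1056 and 1009.6 in KO. All HET arrays were above all WT and KO arrays, whereas the WT and KO arrays overlapped. The KO vs WT change was -0.19 (adjusted p = 0.261) and the HET vs WT change 0.28 (adjusted p = 0.998). Only KO vs HET passed, with a fall of 0.47 (SE 0.10, limma adjusted p = 0.0120). The 3 other Pdk1 probe sets had KO vs HET changes of -0.39, 0.11 and -0.28, and with the mean of the 4 the call was lost (-0.26, adjusted p = 0.259; lowest and highest over all settings 0.00386 and 0.259).

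The promoters of these genes were read from RefSeq (build GRCm38.p6), 250 bases before to 50 after each start, for 32 of the 34 genes in 48 windows. Searched on both strands were ACGTG, a form of the core of hypoxia response elements, CACGTG, the E-box bound by MYC and related factors, and GTAAACA, a forkhead motif; every CACGTG also holds ACGTG. A window with ACGTG was found for 11 of 16 glycolysis genes (68.8%), 0 of 5 pentose phosphate genes and 3 of 11 TCA genes (27.3%), beside 30.1% of all tested genes with a window and 21.8% of all genes in the table. CACGTG was found for 5 of 32 genes (15.6%, beside 12.1% of all tested genes). GTAAACA was found for 0 of 32, beside 3.21% of all tested genes, which says only that these letters are not in these windows. The median GC content was 61% in the windows of the 32 genes, 62.8% in those of glycolysis and 60.7% in those of all tested genes. A gene counts once if any of its windows matches, so genes with several windows can match more easily. By window, ACGTG was in 53.8% of 26 for glycolysis, 0 of 6 for the pentose phosphate genes and 50% of 16 for TCA. That share was 26.2% in the windows of all tested genes. The TCA windows include 6 of Ogdh, each with a match. A match is a description of the letters and no site. Shown are the windows of Pfkfb3, the gene with the largest rise, and of Ldha, which fell, both with matches, and that of Fh1, the gene with the largest fall, without one. Each runs 5′ to 3′ along its gene with the matches in capitals.
Pfkfb3, chr2:11553880-11554179 (minus strand): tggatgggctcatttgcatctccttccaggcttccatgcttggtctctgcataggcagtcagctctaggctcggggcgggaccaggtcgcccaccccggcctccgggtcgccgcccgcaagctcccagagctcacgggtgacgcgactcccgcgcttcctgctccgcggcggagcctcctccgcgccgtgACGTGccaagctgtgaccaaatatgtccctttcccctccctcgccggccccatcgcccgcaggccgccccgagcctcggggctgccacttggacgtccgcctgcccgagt
Pfkfb3, chr2:11502041-11502340 (minus strand): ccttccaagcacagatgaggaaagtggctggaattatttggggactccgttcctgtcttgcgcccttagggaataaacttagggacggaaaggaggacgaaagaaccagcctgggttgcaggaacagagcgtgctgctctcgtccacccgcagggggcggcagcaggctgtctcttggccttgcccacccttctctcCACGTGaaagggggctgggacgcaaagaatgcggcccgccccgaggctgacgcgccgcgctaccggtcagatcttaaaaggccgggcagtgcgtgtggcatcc
Ldha, chr7:46845554-46845853 (plus strand): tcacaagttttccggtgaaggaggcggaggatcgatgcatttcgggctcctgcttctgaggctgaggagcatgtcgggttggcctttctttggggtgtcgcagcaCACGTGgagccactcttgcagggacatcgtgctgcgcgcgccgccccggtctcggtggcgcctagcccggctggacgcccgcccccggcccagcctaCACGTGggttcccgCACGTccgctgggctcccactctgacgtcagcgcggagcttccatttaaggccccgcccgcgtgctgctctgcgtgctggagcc
Fh1, chr1:175625586-175625885 (minus strand): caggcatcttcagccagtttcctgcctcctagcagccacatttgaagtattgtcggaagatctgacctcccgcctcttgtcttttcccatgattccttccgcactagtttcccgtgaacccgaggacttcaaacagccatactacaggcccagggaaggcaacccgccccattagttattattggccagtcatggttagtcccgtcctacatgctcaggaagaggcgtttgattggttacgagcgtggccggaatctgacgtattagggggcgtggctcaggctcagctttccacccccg
This Ldha window holds 2 E-boxes and a further ACGTG, the other Ldha window no match, and the second Pfkfb3 window 1 E-box. Of the 6 genes called in KO vs WT that had a window, 2 had ACGTG (33.3%, beside 30.1% of all tested genes). These were Pfkfb3, which rose, and Ldha, which fell, and both also had CACGTG (33.3%, beside 12.1%). Tpi1, Rpia, Suclg1 and Fh1, which fell, had no match.

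In the pentose phosphate pathway all 5 tested genes had KO vs WT changes below 0, with a median of -0.12, and 1 passed. Among all tested genes 47.7% had changes below 0 and 5.83% were called lower, with a median of 0.011. Rpia encodes ribose 5-phosphate isomerase, which makes the ribose of nucleotides. It was 5954, 5988 and 6286 in WT, 6079.8, 5582 and 5934 in HET and 5069, 4847 and 4615 in KO. The KO arrays lay below all others, and Rpia fell by 0.33 (SE 0.054, limma adjusted p = 0.00183), a call that held under all 22 alternative settings. Rpia has 1 probe set, so settings on the choice of probe set could not change its readout. Pgd, which makes NADPH in the oxidative branch, had a change of -0.12 (adjusted p = 0.186), and its 4 probe sets lay between -0.13 and -0.11. The non-oxidative branch, to which RPIA belongs, shuttles carbon back to glycolysis. Its other genes among the 34 had changes of -0.13 (Tkt, transketolase) and -0.12 (Taldo1, transaldolase), with limma adjusted p = 0.163 and 0.288. The next Tkt probe set was 1849, 2084 and 1930.3 in WT and 1605, 1663 and 1726 in KO, without overlap. Its change was -0.23 (adjusted p = 0.0656 over all probe sets), and Tkt was called when probe sets with a shared suffix were left out (adjusted p = 0.0446; lowest and highest over all settings 0.0185 and 0.371). Pgls, the lactonase between the oxidative steps, had a change of -0.046 (-0.32 to 0.23).

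In the TCA cycle 2 of 12 genes fell, 0 rose and 10 did not pass (median -0.056). Of all tested genes 5.83% fell and 6.1% rose, with a median of 0.011. Fh1, which encodes fumarase, was 6201, 5851 and 7009 in WT, 6175, 6091 and 6234 in HET and 4809, 5169 and 4618 in KO. The highest KO array was below the lowest WT array and below all HET arrays. Fh1 fell by 0.38 (SE 0.067, limma adjusted p = 0.00257), the largest fall among the 34, and the call held under all 22 alternative settings. Fh1 too has 1 probe set, which the settings on the choice of probe set could not change. Suclg1 encodes the subunit shared by the succinyl-CoA ligases. It was 2448, 2384 and 2380.4 in WT, 2369, 2579.99 and 2183 in HET and 2082, 1896 and 2094 in KO, with all KO arrays below the others. It fell by 0.25 (SE 0.072, limma adjusted p = 0.0407; 0.0554 in the fit over all probe sets). That call was lost without any 1 of WT replicates 1, 2 and 3, HET replicate 1 and KO replicates 1 and 2 (adjusted p = 0.113, 0.0988, 0.0934, 0.0517, 0.0650 and 0.137; lowest and highest over all settings 0.00468 and 0.137).

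The entry and the early steps of the cycle did not pass. Cs, the gene of citrate synthase, was 8405, 8334 and 8993 in WT, 9056, 8549 and 8815 in HET and 8503, 8325 and 8536 in KO. The KO arrays overlapped the WT arrays and lay below the HET arrays, and the interval of the KO vs WT change was narrow (-0.020; -0.12 to 0.079). Idh3a, the catalytic subunit gene of the NAD-dependent isocitrate dehydrogenase, was 1739, 1902 and 1683 in WT, 1687, 1792 and 1852 in HET and 1933, 1944 and 1979 in KO. Its KO arrays lay above the other arrays, yet the change of 0.14 did not pass (adjusted p = 0.223). The other kept Idh3a probe sets had changes of 0.25 and 0.13 (limma adjusted p = 0.270 and 0.614 over all probe sets). On the set with 0.25 all KO arrays also lay above all WT arrays. Ogdh, the gene of the 2-oxoglutarate dehydrogenase E1 subunit, was 1769, 1675 and 1795 in WT, 1675, 1563 and 1702 in HET and 1805, 1764 and 1710.1 in KO. Its KO arrays overlapped the WT arrays, with a change of 0.011 (-0.13 to 0.15), and Dlst, the E2 subunit of the same complex, had 0.011 (-0.16 to 0.18). The other Ogdh probe set had a change of 0.26 (limma adjusted p = 0.223 over all probe sets), with all KO arrays above all WT arrays. The other Dlst sets had changes of 0.29, 0.49 and -0.035 (adjusted p = 0.315, 0.158 and 0.957 in that fit). On the Dlst set with 0.49 all KO arrays lay above all WT arrays. The pyruvate dehydrogenase genes Pdha1, Pdhb and Dlat had changes of -0.13, -0.079 and -0.18 (adjusted p = 0.343, 0.457 and 0.221). The 2 other Dlat probe sets had changes of -0.16 and 0.16. The malate dehydrogenase genes Mdh1 (cytosolic, -0.033) and Mdh2 (mitochondrial, 0.028) had intervals of -0.15 to 0.083 and -0.14 to 0.20. The other kept Mdh1 sets had changes of -0.058, -0.035 and 0.51 (limma adjusted p = 0.587, 0.769 and 0.114 over all probe sets). On the dim Mdh1 set with 0.51 all KO arrays lay above all WT arrays.

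Idh2, the gene of the mitochondrial NADP-dependent isocitrate dehydrogenase, gave 2 unlike readouts. Its brightest probe set was 1835, 1966 and 1746 in WT and 1791, 1800.03 and 1566 in KO, which overlap (-0.11, adjusted p = 0.431). The other was 492, 906 and 699.8 in WT, 508, 451 and 741 in HET and 474, 295 and 364 in KO. All its KO arrays lay below all WT arrays, by a narrow margin at KO replicate 1 and WT replicate 1, and the HET arrays overlapped both. It fell by 0.87 (SE 0.23, adjusted p = 0.0391 over all 19479 kept probe sets). With the mean of both probe sets Idh2 was called (-0.49, adjusted p = 0.0446; lowest and highest over all settings 0.0446 and 0.794). Where the probes of each set lie in the transcript was not analysed here. Over the 34 genes, 22 had more than 1 kept probe set, and 29 of the 42 further sets changed in the same direction as the brightest.

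**Figure D3:**
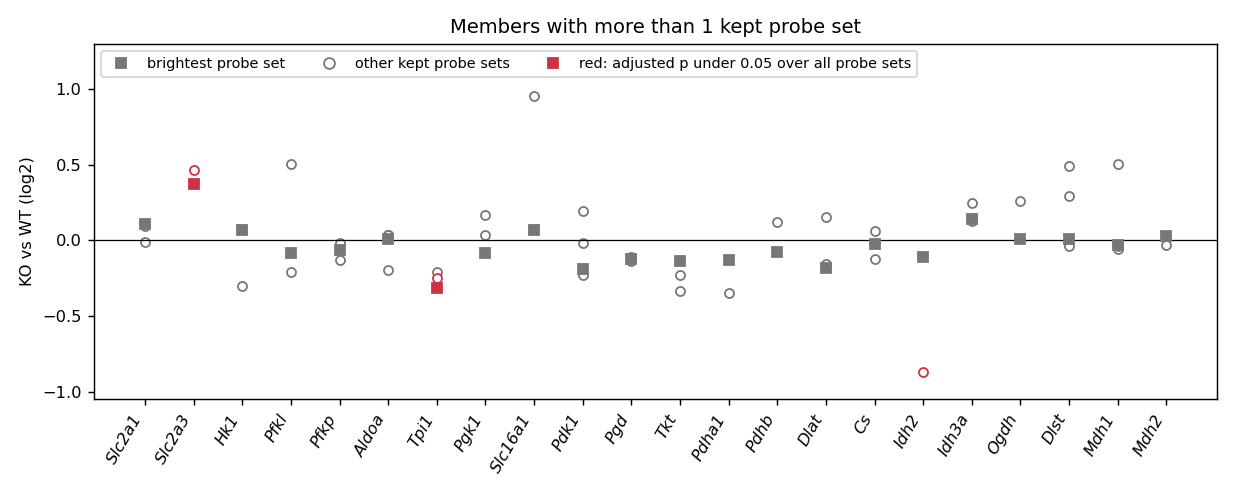
KO vs WT log2 change of every kept probe set for the 22 genes with more than 1, with squares for the brightest and open circles for the others (red: adjusted p under 0.05 in the fit over all probe sets). The Slc2a3, Tpi1 and Pgd sets lie close together, while the Idh2 sets stand at -0.11 and -0.87.

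The 3 pathways were then set side by side, without a test. Of 17 glycolysis genes 2 rose and 2 fell (median -0.065), of 5 pentose phosphate genes 1 fell, and of 12 TCA genes 2 fell. In either direction these were 23.5%, 20.0% and 16.7% of the genes, beside 11.9% of all tested genes (6.1% higher, 5.83% lower). Single arrays moved these small medians: that of glycolysis was -0.035 without WT replicate 1 or 2 and -0.022 without KO replicate 3, and that of the TCA genes -0.097 without WT replicate 1 and -0.034 without KO replicate 2. All KO arrays lay above all WT arrays for 3 glycolysis genes, 0 pentose phosphate genes and 1 TCA gene, 4 of 34 in all, beside 16.2% of all tested genes. They lay below for 4, 1 and 3 genes, 8 of 34 in all, beside 13.5%. Averaged over its genes, the pentose phosphate pathway deviated from its 9-array mean by 0.038, 0.075 and 0.054 (log2) on the WT arrays and by 0.0076, -0.16 and -0.13 on the KO arrays. KO replicate 1 was thus close to 0 and the other 2 KO arrays well below. For the TCA cycle the WT arrays were at 0.015, 0.051 and 0.052 and the KO arrays at -0.014, -0.049 and -0.066. For glycolysis the WT and KO arrays overlapped.

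**Figure D4:**
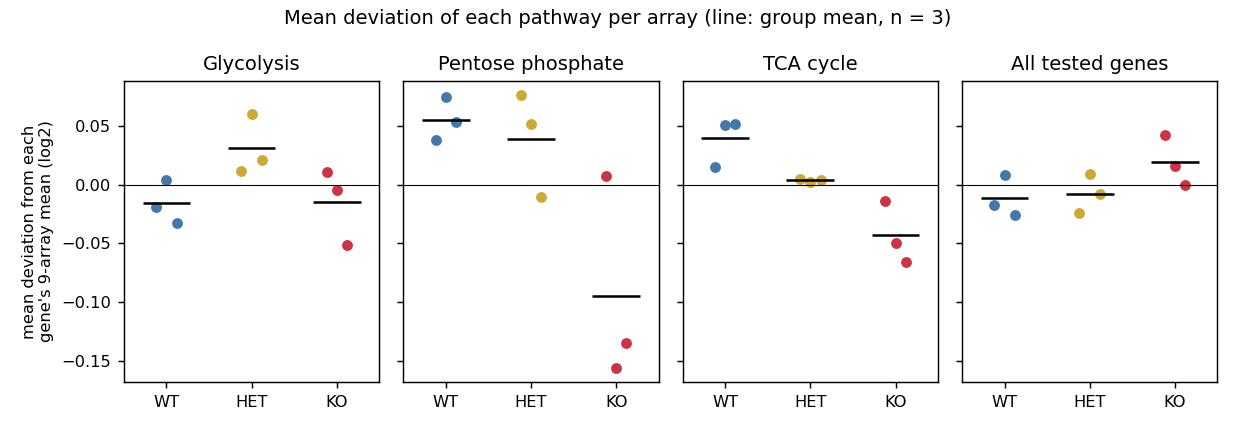
Mean deviation (log2) of each pathway's tested genes from their own 9-array means, 1 point per array and a line at each group mean, with all 10331 tested genes on the right. The pentose phosphate and TCA genes lie lower on the KO than on the WT arrays, and for the glycolysis genes and for all tested genes the KO arrays overlap the WT arrays.

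HET against WT asks what 1 floxed allele changes. By limma 0 of 34 genes were called, beside 0.00968% (1 gene) of all tested genes, and 0 of 34 were called under each of the 22 alternative settings. At an unadjusted p under 0.05 there was 1, Pdk1, beside 4.18% of all. The median change was 0.053 for glycolysis, where 16 of 17 genes lay above 0, -0.025 for the pentose phosphate genes and -0.037 for the TCA genes. Changes lay below 0 in 13 of 34 genes, beside 49.2% of all. All HET arrays lay above the WT arrays for Pdk1 alone and below them for Pgd alone, 1 of 34 each, beside 4.95% and 4.88% of all, and the 95% interval lay within -0.5 to 0.5 for 32 of 34 genes, all but Pfkm and Ldhb. For the 7 genes called in KO vs WT the HET vs WT changes were 0.076 (Slc2a3), 0.031 (Pfkfb3), 0.055 (Tpi1), 0.016 (Ldha), -0.051 (Rpia), -0.019 (Suclg1) and -0.039 (Fh1), each with HET arrays that overlapped the WT arrays on its brightest probe set. On the other bright set of Slc2a3 they did not overlap, as given above.

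KO against HET uses the same KO arrays as KO against WT, so the 2 comparisons are not independent. In it 1 gene rose and 5 fell, beside 4.56% and 4.43% of all tested genes, or 6 of 34 in either direction beside 8.99%. At an unadjusted p under 0.05 there were 12 of 34 (23.2% of all), and changes lay below 0 in 22 of 34 (47.8% of all). The KO arrays lay above all HET arrays for 6 genes and below them for 11, beside 14.5% and 13.1% of all tested genes. Pfkfb3 rose by 0.42 (SE 0.083, adjusted p = 0.00836). Fh1 fell by 0.34 (SE 0.067, adjusted p = 0.00689), Rpia by 0.28 (SE 0.054, adjusted p = 0.00747) and Tpi1 by 0.37 (SE 0.067, adjusted p = 0.00476). Ldha fell by 0.23 (adjusted p = 0.0223), and Pdk1 fell as given above. Slc2a3 (0.29, adjusted p = 0.0665) and Suclg1 (-0.23, adjusted p = 0.0674) did not pass. The Tpi1 call was lost without HET replicate 3 (adjusted p = 0.0668) and that of Ldha without HET replicate 1, KO replicate 1 or KO replicate 2 (adjusted p = 0.0896, 0.0794 and 0.0604). Over all settings their adjusted p ran from 6.70e-04 to 0.0668 for Tpi1 and from 0.00578 to 0.0901 for Ldha.

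Further genes of the same pathways were read from lists set beside the 34. Of 24 tested genes of glycolysis, gluconeogenesis and hexose or lactate transport 1 rose and 0 fell (median -0.069). Among all tested genes 6.1% rose and 5.83% fell, with a median of 0.011. Minpp1, the gene of an inositol polyphosphate phosphatase that also acts on a glycolytic intermediate, rose by 0.29 (SE 0.071, adjusted p = 0.0173), a call lost without WT replicate 3 or KO replicate 1 (adjusted p = 0.0757 and 0.0698; range 0.0115 to 0.112). Of 9 further pentose phosphate and ribose genes 1 fell and 0 rose (median -0.11). Prps2, the gene of a synthetase that turns ribose 5-phosphate, the product of RPIA, into the nucleotide precursor PRPP, was 2929, 2999 and 3103 in WT, 2768, 2958 and 3384 in HET and 1990.4, 2097 and 1679 in KO. The KO arrays lay far below the others, and Prps2 fell by 0.65 (SE 0.090, limma adjusted p = 5.16e-04). Its paralog Prps1, named after its value was seen, had a change of 0.039 (adjusted p = 0.782).

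Of 32 further genes of the TCA cycle and its feeder reactions 4 fell and 0 rose (median -0.081). The shares of all tested genes that fell and rose were 5.83% and 6.1%, with a median of 0.011. Sdhb encodes the iron-sulfur subunit of succinate dehydrogenase, which acts between the steps of SUCLG1 and FH1. Its signal was 3793, 3981 and 4049.7 in WT, 3694, 4103 and 3574 in HET and 3159.7, 3208 and 3306 in KO. The KO arrays lay below all others, and it fell by 0.29 (SE 0.061, limma adjusted p = 0.00879). The other succinate dehydrogenase subunit genes, named after their values were seen, had changes of 0.0030 (Sdha), -0.15 (Sdhc) and -0.21 (Sdhd) and did not pass. Suclg2, the gene of the GTP-specific partner of SUCLG1, fell by 0.65 (SE 0.14, adjusted p = 0.00879). Its signal was 1633, 1806 and 1662 in WT, 1121, 1568 and 1451 in HET and 1253, 1151 and 872 in KO, so that the HET arrays lay below the WT arrays and overlapped the KO arrays. The ATP-specific partner gene Sucla2, also named after its value was seen, had a change of -0.12 (adjusted p = 0.393). Idh1, the cytosolic isocitrate dehydrogenase gene, fell by 0.43 (SE 0.066, adjusted p = 0.00103), and Mpc1, a subunit gene of the mitochondrial pyruvate carrier, by 0.36 (SE 0.088, adjusted p = 0.0170). The Mpc1 call was lost without WT replicate 1 or 3 or KO replicate 2 (adjusted p = 0.0659, 0.0529 and 0.0560; range 0.00263 to 0.0659).

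Markers of cell types and states were read from further lists. Of all tested genes 6.1% rose and 5.83% fell in KO against WT. Of 9 tested plasma cell markers 6 rose in KO against WT (Prdm1, Sdc1, Irf4, Slpi, Edem1 and Ell2). The 3 others had changes below 0 and were not called. The summed signal over 10 plasma cell markers was 31940.1 to 33181.5 in WT, 32124.9 to 34981.6 in HET and 38104.6 to 41488.4 in KO. Of 11 tested myeloid markers 4 rose (Lyz1, Lyz2, Csf1r and Cd68), with sums over 19 markers of 11808.5 to 14714.6 in WT, 10118.9 to 14239.4 in HET and 14236.3 to 14608.9 in KO, while Itgam, Cd14, Fcgr1, Mpo, Elane, C1qa and C1qc lay below the array median on every array. Of 21 tested cell cycle genes 4 fell (Ccna2, Ccnb2, Aurka and Cenpa), with sums of 103690 to 110185 in WT, 102147 to 104349 in HET and 96361 to 98656 in KO. Among the 10 GC B cell markers Gcsam and Rgs13 fell and Fas, which encodes the sort marker CD95, rose. Of 3 tested stromal markers 1 rose (Fn1), and of 2 tested T and NK cell markers 0 were called. The part of these cells and states in the changes of the metabolic genes was not tested.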

How the data were processed

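Total RNA of sorted GC B cells from 9 samples, 3 per genotype, was amplified and hybridised to 1-colour arrays. The authors deposited a table of 45101 probe set intensity values on a linear scale, made with MAS5 per the submitters' processing notes (version not given in the sources used here). Every array had a 2% trimmed mean of 500.002, and array medians were 42.9 to 45.0 in WT and HET and 47.4 to 48.0 in KO.

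Probe sets were named from the platform annotation. Of these, 34945 had 1 symbol, 932 several and 9160 none, and 64 were controls. Values were taken as log2(signal + 2.09), the offset being the 10th percentile of all signals, so the folds of dim genes are understated. Probe sets at or above the array median on at least 3 of 9 arrays were kept, and the brightest of each gene was fitted (10331 genes). limma 3.58.1 (lmFit, eBayes with trend) in R 4.3.3 compared the 3 genotypes in 1 fit over all arrays, with Benjamini-Hochberg adjustment over all tested genes and a call at an adjusted p under 0.05. The scripts were tested on simulated data. Intervals are 95% intervals of that fit. The labels give no batch, litter or sex, so none was modelled; 1 alternative added the Xist signal as a covariate. The number of arrays, 3 per group, limits the precision.

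All 38 genes are accounted for. Values on every array are given for genes called in any comparison and for fixed control points (Slc2a1, Hk2, Pfkfb3, Pkm, Ldha, Pdk1, Cs, Idh3a and Ogdh). From other lists called genes, and up to 3 more by unadjusted p, were named, with exceptions stated. The genes, lists and tests were chosen with earlier results of these data known.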

Additional observations from a re-analysis of the deposited data

How the results depend on the processing

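Of 22 alternative settings, 9 left out 1 array each and 13 changed the offset, filter, normalization, probe set rule or model. Of the 7 genes called in KO against WT, Pfkfb3, Rpia and Fh1 kept their call under every setting and 0 changed sign. Of the 27 others, 19 were never called and 14 changed sign under some setting. Rpia, Fh1, Ldha and Suclg1 have 1 probe set each, and Pfkfb3 has 1 that was kept. Settings on the choice of probe set could therefore not change the readout of these genes. The Tpi1 call in this comparison was lost only where its readout moved to another probe set. The number called in KO against WT was 13 with arrays centred on the median of all probe sets (20.2% of all tested genes were then called, instead of 11.9%), 4 with eBayes without trend (9.19% of all), and 4 to 7 with 1 array left out (4 without WT replicate 2 or 3 or KO replicate 1 or 2). In KO against HET the 6 calls became 11 with that centring (13.3% of all tested genes, instead of 8.99%). With arrays centred on the median of the tested genes, chosen after seeing the data, the same 7 genes were called. The KO against WT median of glycolysis was -0.035 with quantile normalization, -0.19 with centring, -0.034 with the mean of probe sets and -0.065 to -0.022 with 1 array left out. That of the pentose phosphate genes was -0.24 with centring and -0.17 to -0.096 with 1 array left out. That of the TCA genes was -0.023, -0.18 and -0.014 under those 3 settings and -0.097 to -0.034 with 1 array left out. The cause of these shifts was not tested. Suclg1 lost its call with no filter (adjusted p = 0.0628), and Slc2a3 with centring (adjusted p = 0.0727); Slc2a3 could not be tested without shared-suffix probe sets. Tpi1 lost its call with only the 2 groups compared, where another of its probe sets was the brightest (adjusted p = 0.132). No paired analysis was possible because the labels give no replicate numbers shared between genotypes. Pfkm and Ldhb, close to the array median, have intervals too wide to bound a change.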

Other observations

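Of 23 tested regulators of glucose metabolism, among them genes of the HIF, MYC, AKT and mTOR axes, 1 fell and 0 rose in KO against WT (median 0.073). Among all tested genes 5.83% fell and 6.1% rose, with a median of 0.011. Akt1, the gene of a kinase that phosphorylates FOXO1, was 2797, 2990.3 and 2841 in WT, 2782, 2849.6 and 2790.3 in HET and 2439, 2247 and 2119.9 in KO. All KO arrays lay below the others, and Akt1 fell by 0.34 (SE 0.064, limma adjusted p = 0.00380); with the mean of its probe sets the adjusted p was 0.0723 (range over all settings 6.27e-04 to 0.0723). Txnip, a brake on glucose uptake, had a change of 0.18, and Esrra, a regulator of mitochondrial genes, of 0.31 (adjusted p = 0.265 and 0.193).

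Among 11 tested HIF targets outside the 38 genes, 3 fell and 1 rose (median -0.14), beside 5.83% and 6.1% of all tested genes. Bnip3, a gene of mitophagy, was 712, 629 and 453 in WT, 751, 582 and 697 in HET and 283, 353 and 329 in KO. Every KO array lay below every other array, and Bnip3 fell by 0.87 (SE 0.16, limma adjusted p = 0.00377). Mxi1, a MYC antagonist gene, fell by 0.64 (adjusted p = 0.0108; 0.0503 without WT replicate 1, with a range of 0.00258 to 0.0503). Fam162a fell by 0.24 (adjusted p = 0.0471), a call lost under 12 of 22 settings, among them each of 7 left-out arrays (WT replicates 1, 2 and 3, HET replicate 3 and KO replicates 1, 2 and 3; adjusted p up to 0.156). Adm, which encodes adrenomedullin, was dim and rose by 1.26 (adjusted p = 0.0365), a call lost without WT replicate 1, 2 or 3 or KO replicate 1 or 3 (adjusted p up to 0.131).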
